A study of Mus musculus with 8 samples.

Results

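Of the 1040 mouse miRNA probes in the deposited array table, 7 were taken by name: mmu-miR-143, mmu-miR-145, mmu-miR-199a-3p, mmu-miR-199a-5p, mmu-miR-214, mmu-miR-126-3p and mmu-miR-126-5p (the species prefix is left out from here on). The first 5 are known from mesenchyme and the last 2 from endothelium, so they can report on stromal RNA in a sorted epithelial population. The question was whether the members differed between thymic cell types, and whether they rose and fell together. Levels were read on 1-colour Agilent miRNA arrays, on which each mouse probe was printed as 5 spots.

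The arrays held RNA of thymic cells that had been FACS-sorted from wildtype female NOD mice at 4 weeks of age, with no treatment named. NOD is an inbred strain prone to autoimmune diabetes. CD45+ cells (CD45+ EpCAM-, the hematopoietic reference) were hybridized on 3 arrays, cortical thymic epithelial cells (cTECs; CD45- EpCAM+ MHC II+ Ly51+) on 2, and medullary thymic epithelial cells (mTECs; CD45- EpCAM+ MHC II+ Ly51-) on 3. Each replicate was a pool of 10 to 12 thymi, so the spread between replicates is that between pools and not between mice. No array of sorted mesenchymal or endothelial cells was analysed here. In bulk samples of this kind, fewer cells of a type and less RNA per cell cannot be told apart.

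miRNAs are short RNAs that pair with messenger RNAs through a seed near their 5′ end and lower their output. miR-143 and miR-145 are made from 1 precursor transcript and are best known from smooth muscle and fibroblasts, where they promote the contractile state. miR-199a and miR-214 come from the Dnm3os transcript of embryonic and fibroblastic mesenchyme. Both strands of miR-126 are cut from an intron of Egfl7, an endothelial gene, and miR-126 supports vascular integrity. It is also known from hematopoietic progenitors and platelets.

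In the RefSeq annotation (GRCm38.p6), Mir199a-2 and Mir214 lay 5444 bases apart on chromosome 1, within Dnm3os and inside Dnm3, and Mir199a-1 lay within Dnm2 on chromosome 9. Mir126a lay within Egfl7 on chromosome 2. RefSeq mature sequences were matched for 4 of the 7 members. They are shown 5′ to 3′ to let the seeds be compared, with the seed (bases 2 to 8) in capitals. miR-199a-3p was at chr1:162217883-162217904 (+) and chr9:21496498-21496519 (-), and miR-199a-5p was at chr1:162217844-162217866 (+) and chr9:21496537-21496559 (-). miR-214 was at chr1:162223438-162223459 (+), and miR-126-3p was at chr2:26591402-26591423 (+).
miR-199a-3p: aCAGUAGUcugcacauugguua
miR-199a-5p: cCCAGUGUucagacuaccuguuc
miR-214: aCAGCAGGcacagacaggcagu
miR-126-3p: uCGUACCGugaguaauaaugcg
The 4 seeds were all different. The miR-199a-3p sequence was identical to that of miR-199b-3p, whose gene lies within Dnm1, and the array cannot separate these 2 products. The seed of miR-214 was shared with miR-761. The probes for miR-199a-5p and miR-199b* differed at 1 of 34 letters (G15A, the miR-199a-5p probe's base first, counted from the probe's 5′ end).

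Signals are given as scaled signal, which is the background-subtracted spot signal averaged over a probe's spots and brought to the same 75th percentile on every array, in arbitrary units. The percentile was taken over the 65 mouse probes that were well above background on all 8 arrays. A probe was called well above background on an array when most of its spots carried that mark from the scanner software. The dim cTEC arrays had to be scaled up most. Their 75th percentiles before scaling were 2910 and 1364, against 8323 to 11408 in the CD45+ replicates and 4213 to 11503 in the mTEC replicates. They had 122 and 98 mouse probes well above background, against 169 to 229 and 236 to 325. Consequently the lowest scaled signal that was well above background, here called an array's detection limit, was 342 and 621 in the cTEC replicates, against 80.2 to 144 in the CD45+ replicates and 67.0 to 223 in the mTEC replicates.

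The 7 members showed several patterns. miR-143 and miR-145 stood at least 26.5-fold higher in mTECs than in CD45+ cells, and miR-214 was picked up on 2 mTEC arrays alone. miR-126-3p was highest in cTECs in scaled signal, but the groups overlapped before scaling. On none of the 8 arrays was miR-199a-3p, miR-199a-5p or miR-126-5p well above background. No member other than miR-126-3p was well above background on a CD45+ array.

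**Figure D1:**
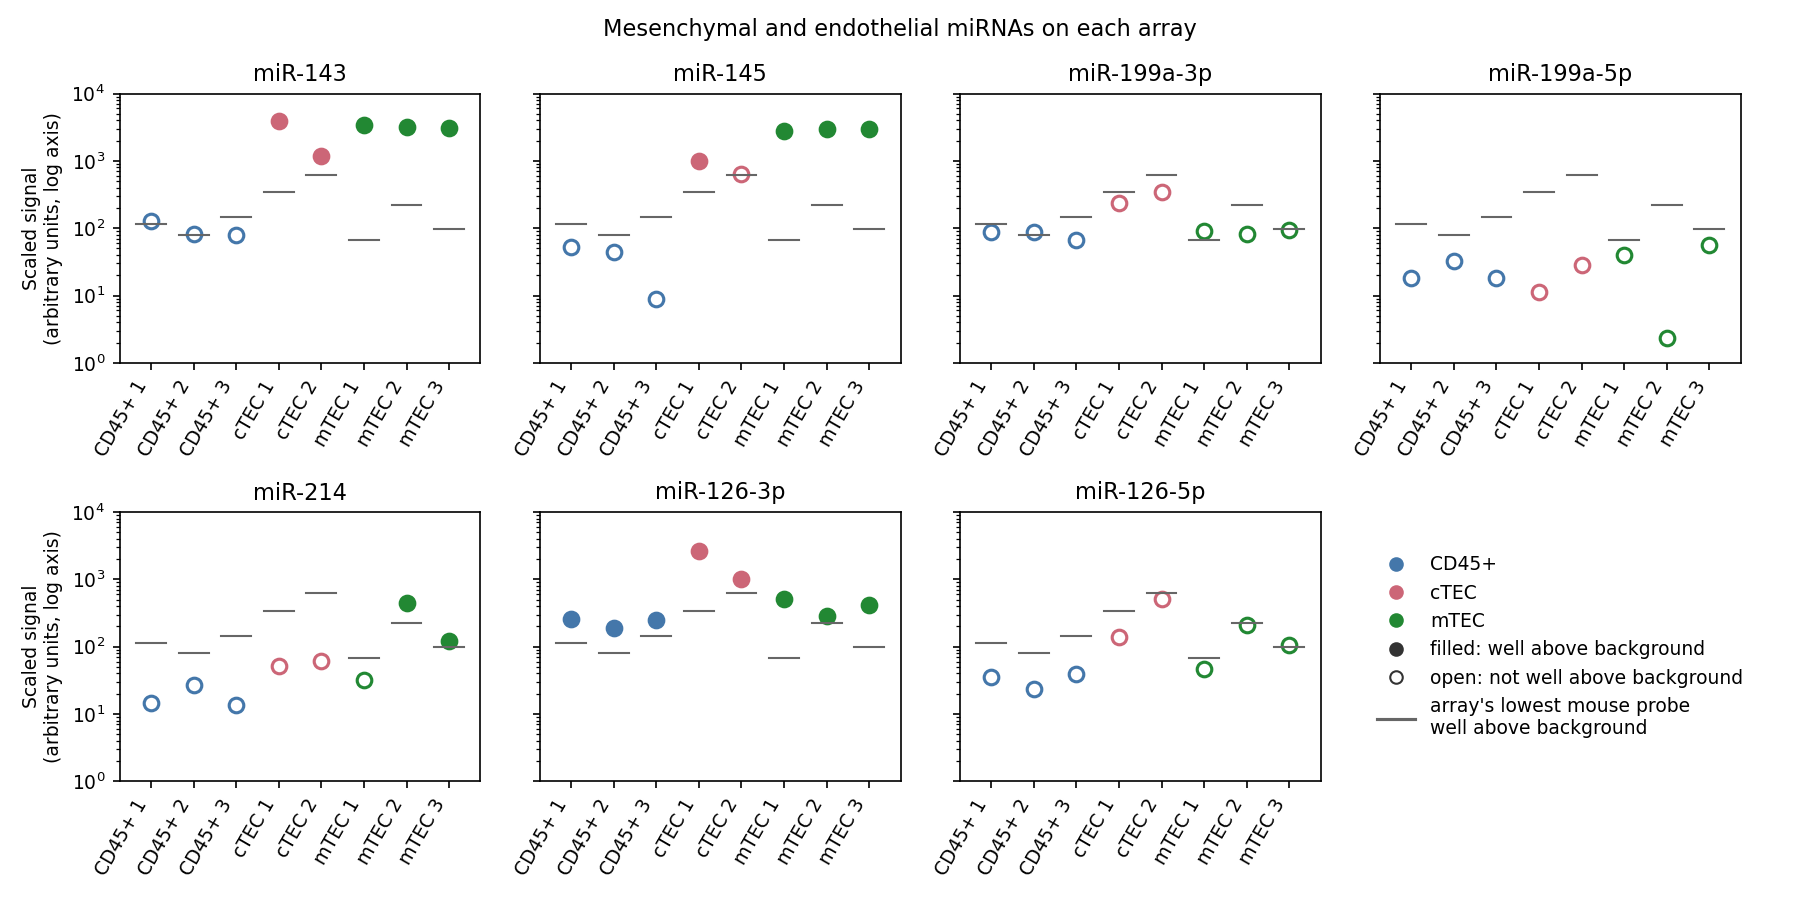
Scaled signal (arbitrary units, log axis) of each of the 7 members on the 3 CD45+, 2 cTEC and 3 mTEC arrays. Each point is 1 array, filled where the probe was well above background, and the bar marks that array's lowest mouse probe well above background. miR-143 and miR-145 are high on all mTEC arrays, miR-126-3p is highest in the cTEC replicates, and miR-199a-3p, miR-199a-5p and miR-126-5p have open points only.

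The genes of the mesenchymal pair miR-143 and miR-145 lay 1301 bases apart on chromosome 18 within Carmn, a long noncoding RNA gene (GRCm38.p6). miR-143 read 3454, 3158 and 3046 in the mTEC replicates and 3842 and 1164 in the cTEC replicates. On the CD45+ arrays it read 128, 82.2 and 80.2, where no array placed it well above background. All 5 epithelial arrays therefore lay above the 3 CD45+ arrays, while the mTEC values lay inside the range spanned by the cTEC arrays. The mean was 3219 ± 210.5 (SD, n = 3) in mTECs and 2503 ± 1894 (SD, n = 2) in cTECs. Taken against the CD45+ detection limit, miR-143 was at least 27.9-fold higher in mTECs and at least 18.4-fold higher in cTECs. The cTEC bound was 33.4 from array 1 alone and 10.12 from array 2 alone.

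miR-145, which shares the precursor, read 2771, 2978 and 2977 in the mTEC replicates. It read 978 on cTEC array 1. On cTEC array 2 it read 631, with only 1 of its 5 spots well above background. On the CD45+ arrays it read 51.8, 44.8 and 8.82, and none of these was well above background. For this miRNA mTEC was highest at 2909 ± 119 (SD, n = 3), cTEC intermediate at 805 ± 246 (SD, n = 2) and CD45+ lowest. The 3 groups did not overlap, but the share of all mouse probes separated like this was not counted. miR-145 was at least 26.5-fold higher in mTECs than in CD45+ cells, and no fold is given for cTECs, where 1 of 2 arrays measured it.

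The star strand of miR-143 was well above background on mTEC array 1 alone, at 93.6. Neither miR-145* nor miR-214* nor miR-199b* was well above background on any array. Partner strands therefore added no value that could be compared between groups.

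The mesenchymal members of the Dnm3os transcript had low signals. miR-214, which is known from skeletal and fibroblastic mesenchyme, read 32.4, 440.3 and 119.6 in the mTEC replicates. The first was not well above background, and the other two were, on 5 and 4 of 5 spots. It read 50.8 and 62.2 in the cTEC replicates and 14.4, 27.0 and 13.8 in the CD45+ replicates, none well above background. The 3 mTEC values were spread over a wide range (197 ± 214.8, SD, n = 3, of which 2 were well above background), and no fold over CD45+ cells is given.

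The strands cut from the miR-199a hairpins gave no measured level. miR-199a-3p read 88.0, 88.7 and 67.5 in the CD45+ replicates and 89.6, 81.6 and 95.0 in the mTEC replicates. The cTEC readings of 234 and 347 were higher, but lay under those arrays' own limits of 342 and 621. miR-199a-5p read 18.1 to 32.2, 11.2 to 28.0 and 2.31 to 56.4 on the CD45+, cTEC and mTEC arrays. These readings are bounds, and no difference was drawn from them.

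The endothelial miR-126-3p was the only member well above background on all 8 arrays. It read 2615 and 1013 in the cTEC replicates, 503, 285 and 416 in the mTEC replicates, and 259.9, 189 and 248 in the CD45+ replicates. In scaled signal the order was cTEC (1814 ± 1133, SD, n = 2), mTEC (401 ± 109.5, SD, n = 3) and CD45+ (232 ± 38.2, SD, n = 3). The 3 groups did not overlap, but the share of all mouse probes separated like this was not counted. As measured, cTECs stood 7.08-fold above CD45+ cells and 4.17-fold above mTECs, and mTECs stood 1.70-fold above CD45+ cells. From cTEC array 1 alone the cTEC folds were 11.4 and 6.69, and from array 2 alone they were 4.40 and 2.59.

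The order for miR-126-3p depended on the scaling. Before scaling, miR-126-3p read 1318 and 239 in the cTEC replicates, 1002, 208 and 461 in the mTEC replicates and 476, 373 and 358 in the CD45+ replicates, and the 3 groups overlapped. The unscaled miR-143 signals were still higher on all 5 epithelial arrays (275 to 6878) than in the CD45+ replicates (116 to 235). The same held for miR-145, at 149 to 5519 against 12.7 to 94.9. The other endothelial strand, miR-126-5p, read 23.3 to 39.8 in the CD45+ replicates, 140.1 and 514 in the cTEC replicates and 47.2, 212 and 107 in the mTEC replicates, none well above background.

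In scaled signal, miR-143, miR-145 and miR-126-3p read higher on every epithelial array than on any CD45+ array. So did miR-214 and miR-126-5p, but mostly or wholly from readings not well above background, whose order has no weight. The same was true of 24.2% of all 1040 mouse probes. Before scaling it held for miR-143 and miR-145 among the first 3, and for 6.63% of all mouse probes. In an exact 2-sided permutation test of the 5 epithelial against the 3 CD45+ arrays, the p unadjusted for the number of tests was 0.0179 for miR-143 and for miR-145, the smallest value this design allows, and 0.0714 for miR-126-3p. The other 4 of the 7 members tested this way had too few arrays well above background for the p to be read.

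Groups were then compared with limma across the 309 mouse miRNAs that passed the background mark on 2 or more arrays, with p-values adjusted over all 309. Scaled signals under 621 were set to 621, the highest of the arrays' detection limits. This floor makes a fitted fold smaller than the measured one wherever a group lies under it. Of the members, 4 were tested (miR-143, miR-145, miR-126-3p and miR-214), and miR-214 was at the floor on all arrays, as were 83 of the tested miRNAs.

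In mTECs against CD45+ cells, 2 members were higher and none was lower by limma at an adjusted p under 0.05. Of all tested miRNAs, 23.9% were called, 9.06% as higher and 14.9% as lower in mTECs. miR-143 was higher by a fitted 2.37 on the log2 scale (SE 0.42, adjusted p = 0.00698) and miR-145 by 2.22 (SE 0.11, adjusted p = 2.2e-05). miR-126-3p lay under the floor in both groups, so the fit gave 0. With the floor of these 2 groups alone its difference was 0.67 (adjusted p = 0.0696), a setting added after the data were seen.

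In cTECs against CD45+ cells, 3 members were called higher, where 30.7% of all tested miRNAs were called, 10.7% higher and 20.1% lower. The fitted log2 differences were 1.75 for miR-143 (SE 0.47, adjusted p = 0.0353), 1.38 for miR-126-3p (SE 0.37, adjusted p = 0.0335) and 0.42 for miR-145 (SE 0.12, adjusted p = 0.0449). Leaving out 1 cTEC array moved the values, to 0.87 or 2.63 for miR-143, 0.69 or 2.07 for miR-126-3p and 0.20 or 0.64 for miR-145, the higher value being that of replicate 1 alone. No weight is given to the p-values of those fits, in which miR-126-3p was at the floor on all CD45+ and mTEC arrays and so showed no spread. All 3 calls were lost, with the fitted values unchanged, when any single CD45+ or mTEC array was left out, with adjusted p of up to 0.0964 for miR-143, 0.0928 for miR-126-3p and 0.116 for miR-145. In all, they were lost under 13 of 24 alternatives for miR-143, 13 of 25 for miR-126-3p and 17 of 24 for miR-145. This included the fit without normalization between arrays, where the difference for miR-126-3p was 0.51 (adjusted p = 0.879).

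In mTECs against cTECs, 1 member was higher and 1 was lower, where 22.7% of all tested miRNAs were called, 16.2% higher and 6.47% lower. miR-145 was higher in mTECs by 1.80 (SE 0.12, 95% CI 1.50 to 2.10, adjusted p = 1.67e-04). It missed the threshold under 1 of 24 alternatives, quantile normalization (1.98, adjusted p = 0.051). miR-126-3p was lower in mTECs, with a log2 difference of -1.38 (SE 0.37, adjusted p = 0.0421). That call was lost under 14 of 25 alternatives, among them when any single CD45+ or mTEC array was left out (adjusted p up to 0.114) and without normalization between arrays, where the difference was -0.27 (adjusted p = 0.912). With the slide row as a block it was -1.32 (adjusted p = 0.0564). The difference for miR-143 was 0.62 (SE 0.47, 95% CI -0.53 to 1.78, adjusted p = 0.466), and it rested on which cTEC array was used. It was 1.50 (adjusted p = 6.5e-05) without cTEC replicate 1 and -0.26 (adjusted p = 0.0773) without cTEC replicate 2.

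**Figure D2:**
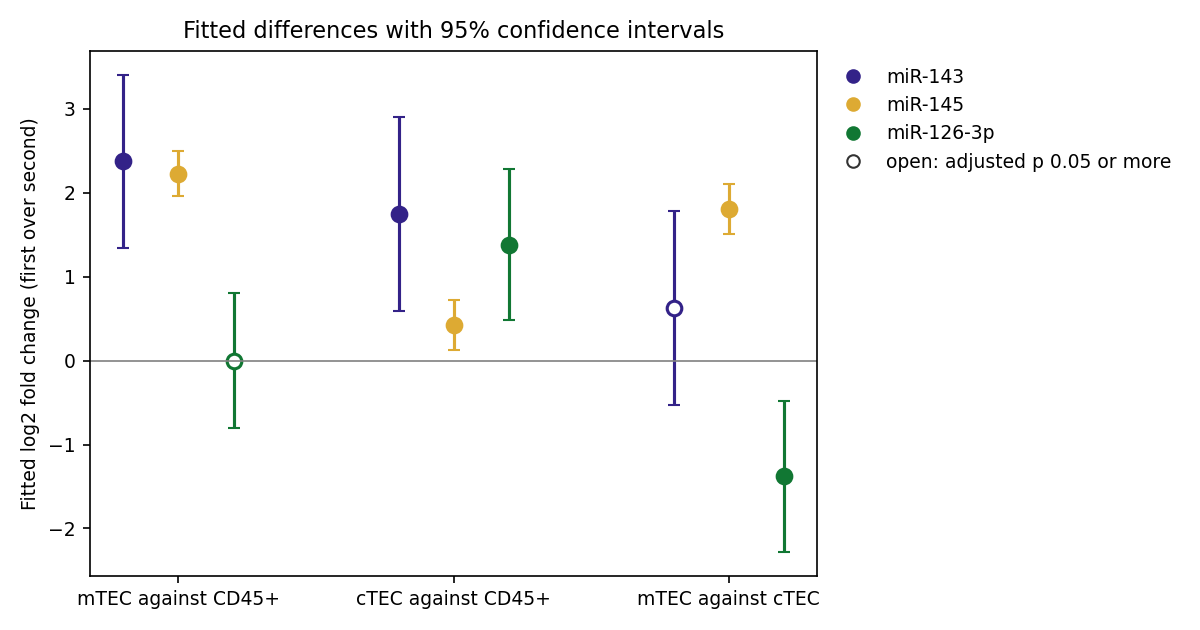
Fitted log2 fold change (first group over second) with 95% confidence interval for miR-143, miR-145 and miR-126-3p in each comparison of groups, from limma over 8 arrays with the floor at 621. Open points have an adjusted p of 0.05 or more. miR-145 is higher and miR-126-3p lower in mTECs against cTECs, while the interval for miR-143 there spans 0. That call for miR-126-3p was lost under 14 of 25 alternative settings.

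The members were next set against each other within each array, where scaling cancels. Such ratios show unequal change, not which of the pair changed. The log2 ratio of miR-143 to miR-126-3p was 0.56 and 0.20 in the cTEC replicates and 2.78, 3.47 and 2.87 in the mTEC replicates, a difference of 2.66 with no overlap. The ratio of miR-145 to miR-126-3p was -1.42 and -0.68 in the cTEC replicates and 2.46, 3.38 and 2.84 in the mTEC replicates. The second cTEC value rests on a miR-145 reading that was not well above background, so no difference is given for this ratio. Both ratios to the endothelial miRNA were higher in every mTEC than in every cTEC replicate, with that reading as given.

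The pair of miR-143 and miR-145 could be compared less firmly. The log2 ratio of miR-143 to miR-145 was 0.32, 0.08 and 0.03 in the mTEC replicates, against 1.97 on cTEC array 1 and 0.88 on cTEC array 2, where miR-145 was not well above background. With the readings as given, for each of these 3 ratios the exact 2-sided permutation test of 3 mTEC against 2 cTEC arrays gave p = 0.1, the smallest value possible, so none could pass 0.05. The cTEC and mTEC replicates did not overlap in any of the 3 ratios, of which any 2 fix the third. Ratios of other pairs of miRNAs were not computed, so how common such a separation is was not tested.

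**Figure D3:**
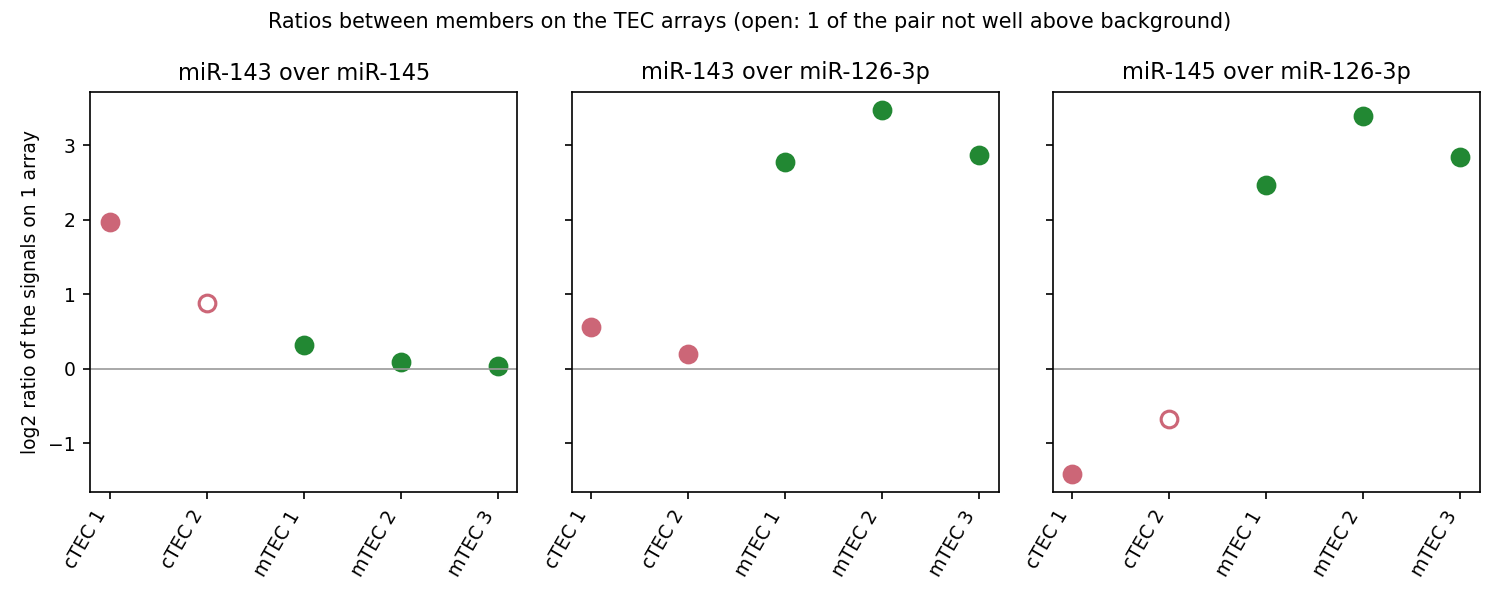
Log2 ratio of the signals of 2 members on the same array, for the 2 cTEC and 3 mTEC arrays. Each point is 1 array, open where 1 of the pair was not well above background. The ratios over miR-126-3p lie between 2.46 and 3.47 in the mTEC replicates and at or under 0.56 in the cTEC replicates.

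Replicates of a group were compared to see whether members deviated together. Between the mTEC arrays, miR-143 lay 0.10, -0.03 and -0.08 from its log2 group mean and miR-145 lay -0.07, 0.03 and 0.03 from its own. miR-126-3p spread more, at 0.36, -0.45 and 0.09. miR-214, read on mTEC arrays 2 and 3, was higher by 1.88 on array 2, which had the lowest miR-126-3p signal of the 3. In the mTEC replicates, then, miR-143 and miR-126-3p were both highest on array 1, where miR-145 was lowest, and miR-214 was highest on array 2.

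The 2 cTEC arrays differed far more. miR-143 was higher on cTEC array 1 than on array 2 by 1.72 and miR-126-3p by 1.37 on the log2 scale. Over the 79 mouse probes that passed the background mark on both, the median difference was -0.35 and the interquartile range ran from -0.69 to 0.20. The miR-143 difference exceeded 96.2% of these probes and the miR-126-3p difference 93.7%. Both members thus stood higher on the same cTEC array. It was not particular to them: the epithelial miR-205 was higher on array 1 by 1.95, miR-200c by 0.79 and miR-200b by 0.49, and the thymocyte miR-181a by 1.91. The 6 lymphocyte miRNAs measured on both arrays ranged from -1.25 (miR-155) to 1.91 (miR-181a), with a median of -0.49. Array 1 and array 2 lay in different rows of the slide, and the row and the array cannot be told apart.

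**Figure D4:**
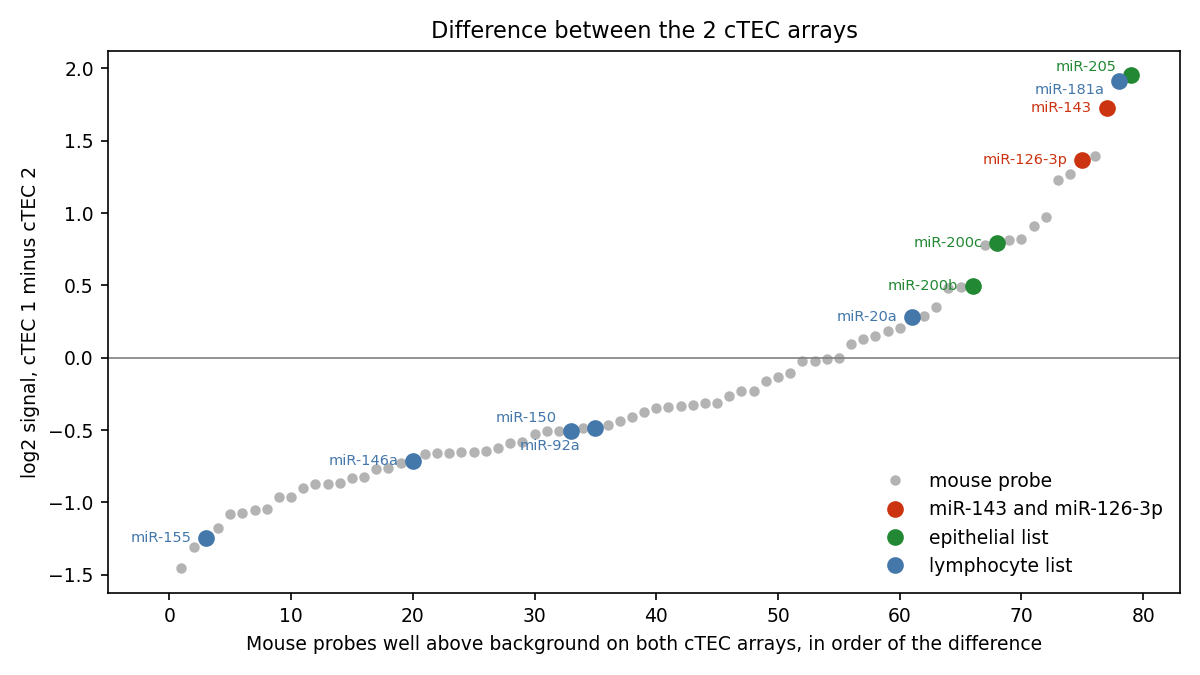
Log2 signal of cTEC array 1 minus cTEC array 2 for the 79 mouse probes well above background on both, in order of the difference. miR-143 (1.72) and miR-126-3p (1.37) lie near the top together with miR-205 (1.95) and miR-181a (1.91).

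Within slide rows, miR-145 was higher in mTECs than in cTECs in both, by 1.51 in row 1 and 2.06 in row 2 on the floored log2 scale. miR-126-3p was lower in both, at -2.07 and -0.69, and at -2.38 and -1.56 as measured without the floor. miR-143 changed side, at -0.15 in row 1 and 1.45 in row 2. Against CD45+ cells, the cTEC difference was 2.63 and 0.87 for miR-143, 2.07 and 0.69 for miR-126-3p and 0.64 and 0.20 for miR-145, each being 1 cTEC array against the floor. The mTEC difference was 2.47 and 2.32 for miR-143 and 2.15 and 2.26 for miR-145. All CD45+ arrays lay at the floor for these 2 miRNAs, so these values show the spread of the mTEC arrays only. Each row held 1 cTEC array, so these values carry no test.

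Markers of other cells were read alongside, as counts of miRNAs called by limma in lists drawn up for the purpose. Of 14 other mesenchymal miRNAs, 8 were tested: 1 was lower in mTECs and 1 in cTECs than in CD45+ cells (miR-140* in both, named after its values were seen), and 1 was higher in mTECs than in cTECs. The last was miR-22, a broadly expressed muscle and fibroblast miRNA, with a difference of 1.16 (adjusted p = 0.0379). Their summed signal over probes well above background was 3443 to 4040 on CD45+, 1053 to 2327 on cTEC and 3201 to 5155 on mTEC arrays. Most of each sum was miR-22, at 2227 to 2704, 1053 to 1979 and 2813 to 3978 in that order. Of the 14, 3 to 4, 1 to 2 and 2 to 8 probes entered these sums, and the cTEC arrays had the highest detection limits. In scaled signal without the floor, miR-152 (also named after its values were seen) was at least 2.37-fold higher in mTECs than in CD45+ cells, on 3 of 3 arrays, at a mean of 260.5 against 59.3. Of the named ones, miR-10b lay at the floor on all 8 arrays and miR-195 and miR-409-3p on 7 of 8 each, so the fit could not measure a difference for them.

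Of 8 other endothelial miRNAs, 7 were tested, and 2 (miR-221 and miR-222) were lower in mTECs and in cTECs than in CD45+ cells. In scaled signal without the floor, 4 of the 8 (miR-100, miR-151-5p, miR-322 and miR-503, the last pair named after values were seen) read higher in every mTEC than in every CD45+ replicate, as did 34.5% of all mouse probes. Of these, miR-503 was well above background on 2 of 3 mTEC arrays and 1 of 3 CD45+ arrays. miR-100 read 54.3 on average in CD45+ cells, not well above background, and was at least 5.94-fold higher in mTECs, on 3 of 3 arrays. miR-221 was higher in mTECs than in cTECs by 0.55 (adjusted p = 0.00317), the opposite direction to miR-126-3p. The floor left nearly no room for a difference there in miR-100 (0.11, adjusted p = 0.40), miR-222 (0.03, adjusted p = 1.0) and miR-151-5p (at the floor throughout). Without it, miR-222 was at least 1.20-fold higher in mTECs than in cTECs. The summed signal was 2205 to 2740 on CD45+, 0 to 923 on cTEC and 2767 to 3279 on mTEC arrays, with 4 to 6, 0 to 2 and 5 to 7 probes of 8 entering, so the cTEC sums are bounded by the detection limits. Their part in the miR-126-3p signal was not tested.

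Red cell, platelet and myeloid miRNAs were read because platelets also carry miR-126. On no array was miR-451 or miR-486 well above background, and miR-144 was so on 1 mTEC array. miR-223, the myeloid member and the only 1 of 4 tested, read 785 to 902 in CD45+ cells and 110.3 to 147 in mTECs, where 2 of 3 arrays were well above background. With the floor, which shrinks these differences, it was lower in mTECs by 0.44 and in cTECs by 0.38 than in CD45+ cells (adjusted p = 0.00165 and 0.0043), with no call between the epithelial groups. The summed signal of this list was 785 to 902 on CD45+, 0 on both cTEC and 0 to 248 on mTEC arrays, with 1, 0 and 0 to 2 probes of 4 entering. The cTEC limits of 342 and 621 would hide lower signals, and miR-223 read 137 and 597 there without being well above background. The part of such cells in the miR-126-3p signal was not tested.

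The labelled cell types were checked against their own miRNAs. All 7 epithelial miRNAs (the miR-200 family, miR-205 and miR-203) were higher in mTECs than in CD45+ cells and than in cTECs, among them miR-203 by 2.62, miR-200c by 2.61, miR-205 by 2.58 and miR-200a by 2.58 against cTECs. In cTECs, 1 of 7 (miR-200c) was called higher than in CD45+ cells. miR-205, not called there, read 3856 and 997 in the cTEC replicates, well above background in both. It read 88.3 to 99.6 in the CD45+ replicates. The floor hides part of the cTEC difference: against the CD45+ limits, miR-200b was at least 8.19-fold higher. Their summed signal was 36799.5 to 39058 on mTEC, 2701 to 7902 on cTEC and 0 to 343 on CD45+ arrays. Of 13 lymphocyte miRNAs, 11 were lower in mTECs and 13 in cTECs than in CD45+ cells, and 5 were higher in mTECs than in cTECs, with miR-19b (2.02), miR-146a (1.52), miR-17 (1.38) and miR-155 (1.22) furthest apart and miR-20a (1.16) as the fifth, named after its values were seen. The lymphocyte sum was 62520.2 to 71309.5 on CD45+, 5844 to 10580.4 on cTEC and 15262 to 17470.2 on mTEC arrays. In mTECs against CD45+ cells the median fitted difference was 2.72 for the epithelial list and -1.83 for the lymphocyte list, beside 0 over all tested miRNAs. It was 0 for the other mesenchymal and the other endothelial lists, where 4 of 8 and 4 of 7 tested miRNAs lay at the floor on all arrays, so these medians say little about change.

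Likeness of pattern was described by Pearson's r of log2 floored signal over the 8 arrays against 148 tested miRNAs. It has no test, since the arrays share 3 cell types and fall into those clusters. miR-145 was closest to miR-200b (r = 0.996), miR-200c (0.994) and miR-200a (0.988). miR-143 was closest to let-7c (0.958), let-7b (0.944) and miR-205 (0.935). Between the members r was 0.83 for miR-143 with miR-145, 0.38 for miR-143 with miR-126-3p and -0.20 for miR-145 with miR-126-3p. On every CD45+ and mTEC array miR-126-3p was at the floor, so both r values with miR-126-3p rest on the cTEC arrays. Neither their size nor their sign can show whether miR-126-3p rose and fell with miR-143 or miR-145.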

How the data were processed

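Total RNA was Cy3-labelled and hybridized to 1-colour Agilent miRNA arrays. The scanner files deposited by the authors, written by Feature Extraction 10.7.3.1 per the file headers, hold background-subtracted spot intensity for 15370 spots, not normalized between arrays. The authors also deposited a table of quantile-normalized log2 values for the same arrays, used for probe names and as an alternative. Its genome positions name no build and were not used.

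Spots flagged as outliers were dropped, and no spot was saturated. Arrays were brought to a common 75th percentile, taken over the 65 mouse probes detected throughout, floored at 621, log2-transformed and averaged over spots. A fit with 3 group means was made in limma 3.58.1 (R 4.3.3) over 309 miRNAs with Benjamini-Hochberg adjustment, after a check on simulated data. Named miRNAs are the 7 members, their partner strands, up to 4 per list with the largest mTEC to cTEC difference, and the 3 most alike to a member. The exact permutation test of epithelial against CD45+ arrays was chosen after values were seen. The members and lists were chosen with earlier results of these data known. The number of arrays limits the precision.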

Additional observations from a re-analysis of the deposited data

How the results depend on the processing

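Across 25 alternatives, the 2 members called in mTECs against CD45+ cells were called in 24, and 0 when only miRNAs detected on all 8 arrays were tested, since neither is among them. In cTECs against CD45+ cells the 3 calls became 0 with the percentile over all mouse probes, no normalization, the authors' deposited values, all probes tested, the 2 groups alone (also with their own floor) and the replicate block, and 1 with the all-array filter. Leaving out 1 array gave 0 to 3. In mTECs against cTECs the 2 calls became 1 under those settings, with quantile normalization (miR-126-3p alone; miR-145 1.98, adjusted p = 0.051) and with the slide row as a block (miR-145 alone). Leaving out 1 array gave 1 to 3. The miR-143 difference between mTECs and cTECs turned to -0.011 with quantile normalization and ranged from -0.26 to 1.50 over left-out arrays. No other difference for miR-143, miR-145 or miR-126-3p changed sign. miR-214, at the floor as reported, was called in cTECs against CD45+ cells with normexp (1.83). Causes were not tested.

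Counts over all tested miRNAs moved as follows. For cTEC against CD45+ (95, 33 of them higher) they were 250 with normexp on the median spot signal (197 higher), 200 with the median limit as floor (119 higher), 224 with the lowest (139 higher) and 53 with the all-array filter (29 higher). Splits shifted further with the all-probe percentile (6 higher, 114 lower), no normalization (2 and 111) and the deposited table (26 and 112). For mTEC against CD45+ (74, 28 higher) they were 121 in the deposited table, 118 with normexp (67 higher), 115 and 140 with the median and lowest floors (55 and 76 higher), 31 with the all-array filter and 123 with the floor of the 2 groups. The all-probe percentile gave 18 higher and 92 lower. For mTEC against cTEC (70, 50 higher) they were 39 with the all-probe percentile (38 higher), 201 with normexp (45 higher), 130 and 129 with those floors (70 and 72 higher) and 38 with the all-array filter (16 higher). No normalization gave 73 higher and 0 lower, and quantile normalization gave 32 and 37. Leaving out 1 array gave 82 to 170, 67 to 75 and 58 to 147, the highest without cTEC replicate 1 in the first and last, where 110 of 170 and 47 of 147 were higher.

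Without normalization the median over the 65 miRNAs detected on all arrays was 1.29 in mTECs against cTECs and -1.23 in cTECs against CD45+ cells, against -0.25 and 0.47 with it. Same-numbered CD45+ and mTEC arrays did not deviate together (r = 0.04, -0.18 and 0.21 over 151 miRNAs). The replicate block therefore pairs arrays by number alone. It left 2, 0 and 1 members called in the 3 comparisons. Arrays were left out with scaling, floor and tested miRNAs kept, and a lone cTEC array was assumed to vary like the other groups. Detection limits of 342 and 621 on the cTEC arrays limit what can be read for low members.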

Other observations

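Striated muscle miRNAs, a further list from outside epithelium, were read as well. Of 7 listed, 6 were on the array and 4 were tested, and limma called 0 of them in each of the 3 comparisons, as at an unadjusted p under 0.05. miR-1, a cardiac and skeletal muscle miRNA, read 885 on cTEC array 2, where it was well above background, and 291 on cTEC array 1, where it was not. It read 142, 321 and 226 on the mTEC arrays, all well above background, and 85.2 to 98.3 on the CD45+ arrays, 1 of which was well above background. miR-206 of skeletal muscle read 769 on cTEC array 2 and 147, 289 and 207 on the mTEC arrays, all well above background, and 84.6 to 104 on the CD45+ arrays, none of them so. miR-133a and miR-133b, which are transcribed with miR-1 and miR-206, were well above background on mTEC arrays 1 and 3 alone, at 155 and 152 and at 135 and 143. Before scaling, miR-1 read 147 and 209 on the cTEC, 282, 234 and 251 on the mTEC and 142 to 169 on the CD45+ arrays. miR-206 read 131 and 182, 292, 211 and 229, and 149 to 178 in that order. For both, the cTEC and CD45+ arrays then overlapped, while the mTEC arrays stayed above the CD45+ arrays. In scaled signal, miR-1 and miR-206 read higher on cTEC array 2 than on array 1. On array 1 neither was well above background (miR-206 at 261). The authors' deposited log2 values gave the opposite order. There miR-1 was at 11.46 on array 1 and 11.42 on array 2, and miR-206 at 11.39 and 11.38. The summed signal of the list over probes well above background was 0 to 85.5 on CD45+, 0 to 1653 on cTEC and 578 to 844 on mTEC arrays.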
